A study of Homo sapiens with 59 samples.

Results

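The expression of 46 genes of the NF-kB pathway and of dendritic cell maturation was followed in PMA-differentiated THP-1 macrophages over 12 h of treatment with rosiglitazone (RSG) or its vehicle. The genes were chosen by name, as members of the pathway or of the maturation programme, with earlier results of these data known. Their probes were kept where the detection p-value was under 0.01 on 5 or more of the 59 arrays. Of the 46 genes, 42 had an annotated probe, and 39 genes were left with 51 kept probes, out of 11515 genes with a named kept probe in the whole series. THP-1 is a human monocytic leukaemia cell line. All 59 samples were THP-1 cells differentiated with 10 ng/ml PMA, a phorbol ester, for 40 h and kept without PMA for 2 h, and they were then given either DMSO or 1 µM RSG, a ligand of the nuclear receptor PPARG. RNA was taken at 0.5, 1.5, 3, 8 and 12 h, which gave 10 groups of 6 arrays each, except for 5 arrays of RSG at 1.5 h. The labels do not say whether replicates were separate cultures, so that p-values measure the spread between these samples, which may be technical.

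NF-kB is a family of dimeric transcription factors that are held in the cytoplasm by inhibitors of the IkB family. Receptors for TNF, CD40 ligand or microbial products start a kinase cascade that removes the inhibitor, the dimers enter the nucleus, and among their targets are the inhibitors themselves, which end the response. In dendritic cells the same factors drive maturation, in which the cell gains co-stimulatory molecules such as CD80, CD83 and CD86, the chemokine receptor CCR7 and the lysosomal protein LAMP3. In macrophages PMA is itself known to activate protein kinase C and, through it, NF-kB.

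The arrays did not all behave alike. DMSO at 12 h replicates 4 and 6, RSG at 8 h replicate 1 and RSG at 12 h replicates 2 and 5 stood apart from the other 54 arrays, and this was known from earlier results of these data. Over all kept probes the 5 arrays correlated with each other at 0.967 to 0.993 and with the other arrays at 0.878 to 0.939, while the other arrays correlated with each other at 0.946 to 0.996. Their mean raw signal of 487 to 1261 and their 12277 to 13185 detected probes lay within the ranges of the whole series, 318 to 1396 and 12182 to 13937. Comparisons were for this reason made both with all 59 arrays under their labels and with the 54 arrays. For the 5 arrays themselves the levels are given as a description, without a test, since they were set apart on measured values. Levels are log2 signals after background correction and quantile normalization, and a difference of 1 on this scale is a doubling of the signal.

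Not every member could be measured. NFKBIA, BIRC3, IER3 and IL15 had no probe annotated to them in the table used here, and CCL17, IL12B and TNFAIP6 had no kept probe, with IL12B just outside the threshold at 4 arrays. Just inside it were 8 probes detected on exactly 5 arrays, and on every one of these the 5 arrays were those set apart: the probes of LAMP3, CCR7, CD80, VCAM1 and PTX3, 1 of 3 for CD86, 1 of 3 for SOD2 and 1 of 2 for IL15RA. Of the 51 kept probes, 24 were detected on all 59 arrays, 40 on at least 5 of the 54 arrays, and 11 on fewer. Kept probes that were seen through the 5 arrays alone had to be higher there.

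The regulatory sequence before the genes was read from a set of promoters of RefSeq genes, build GRCh38.p14. In the set used here 35 of the 46 genes had an entry. NFKBIE, RELB, CD40, IDO1, RIPK2, GCH1, LAMP3, CCR7, CCL17, IER3 and IL15 had none. In the 250 bases before the start, the consensus of the kappa B site, the DNA element that NF-kB dimers bind, was found on either strand in 15 of the 35 members (42.9%), and in 3498 of the 35116 promoters of the whole table (9.96%). Among the 31 members with a kept probe it was found in 13 (41.9%). The AP-1 element TGAGTCA, searched on both strands, was found in 3 of the 35 members (8.57%) and in 4.2% of all promoters. A match is a description of the sequence, not a bound site. The windows of 6 members that held a kappa B match are shown, EBI3, NFKB1, IL23A and TNFAIP3, which fell during the time course, and the chemokines CCL22 and CCL1, which were far higher on the 5 arrays set apart, each read 5′ to 3′ on the gene's strand, with kappa B and AP-1 matches in capitals.
EBI3, chr19:4229273-4229522, plus strand: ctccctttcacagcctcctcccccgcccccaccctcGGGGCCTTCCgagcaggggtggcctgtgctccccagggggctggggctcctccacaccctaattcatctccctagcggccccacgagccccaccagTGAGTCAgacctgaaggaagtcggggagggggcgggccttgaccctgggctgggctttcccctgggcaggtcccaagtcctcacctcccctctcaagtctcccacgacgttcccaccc
NFKB1, chr4:102501109-102501358, plus strand: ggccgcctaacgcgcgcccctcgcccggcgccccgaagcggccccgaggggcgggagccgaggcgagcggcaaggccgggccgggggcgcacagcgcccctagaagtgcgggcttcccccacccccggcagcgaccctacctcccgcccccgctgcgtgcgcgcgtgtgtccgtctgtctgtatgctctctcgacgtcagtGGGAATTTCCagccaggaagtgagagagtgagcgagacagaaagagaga
IL23A, chr12:56338634-56338883, plus strand: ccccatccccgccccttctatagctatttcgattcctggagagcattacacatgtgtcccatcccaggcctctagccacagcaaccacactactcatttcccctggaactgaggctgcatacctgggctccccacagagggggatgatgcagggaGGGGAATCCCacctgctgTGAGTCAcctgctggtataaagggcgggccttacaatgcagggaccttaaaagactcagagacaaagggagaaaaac
TNFAIP3, chr6:137867009-137867258, plus strand: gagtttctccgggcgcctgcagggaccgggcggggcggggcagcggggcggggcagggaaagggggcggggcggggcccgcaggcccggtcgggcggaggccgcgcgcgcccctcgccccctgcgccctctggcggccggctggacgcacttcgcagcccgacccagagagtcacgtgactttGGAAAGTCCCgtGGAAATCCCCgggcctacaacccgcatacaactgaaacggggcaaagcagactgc
CCL22, chr16:57358533-57358782, plus strand: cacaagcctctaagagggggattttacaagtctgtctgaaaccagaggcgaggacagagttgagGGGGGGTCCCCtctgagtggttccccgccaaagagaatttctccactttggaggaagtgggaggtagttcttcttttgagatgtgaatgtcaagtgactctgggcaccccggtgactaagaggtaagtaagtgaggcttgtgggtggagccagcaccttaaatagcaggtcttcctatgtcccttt
CCL1, chr17:34363234-34363483, minus strand: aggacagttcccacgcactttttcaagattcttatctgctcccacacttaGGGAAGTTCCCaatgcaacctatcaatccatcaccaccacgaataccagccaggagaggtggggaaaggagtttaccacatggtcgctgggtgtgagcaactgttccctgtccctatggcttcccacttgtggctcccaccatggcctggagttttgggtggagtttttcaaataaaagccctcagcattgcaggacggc
In EBI3 the kappa B match began 214 bases before the start and the AP-1 match 118 bases before it. In IL23A both lay closer to the start and to each other, at 95 and 77 bases. NFKB1 held its match 49 bases before its own start. TNFAIP3 held a pair, beginning 67 and 55 bases before the start. In CCL22 and CCL1 the element read on both strands with a shift of a single base, so that 1 stretch counted as 2 matches. CD83 and BCL3, which both fell by more than 2-fold at 8 and 12 h in DMSO, held neither element in this window, which says only that these letters are not in it.

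**Figure D1:**
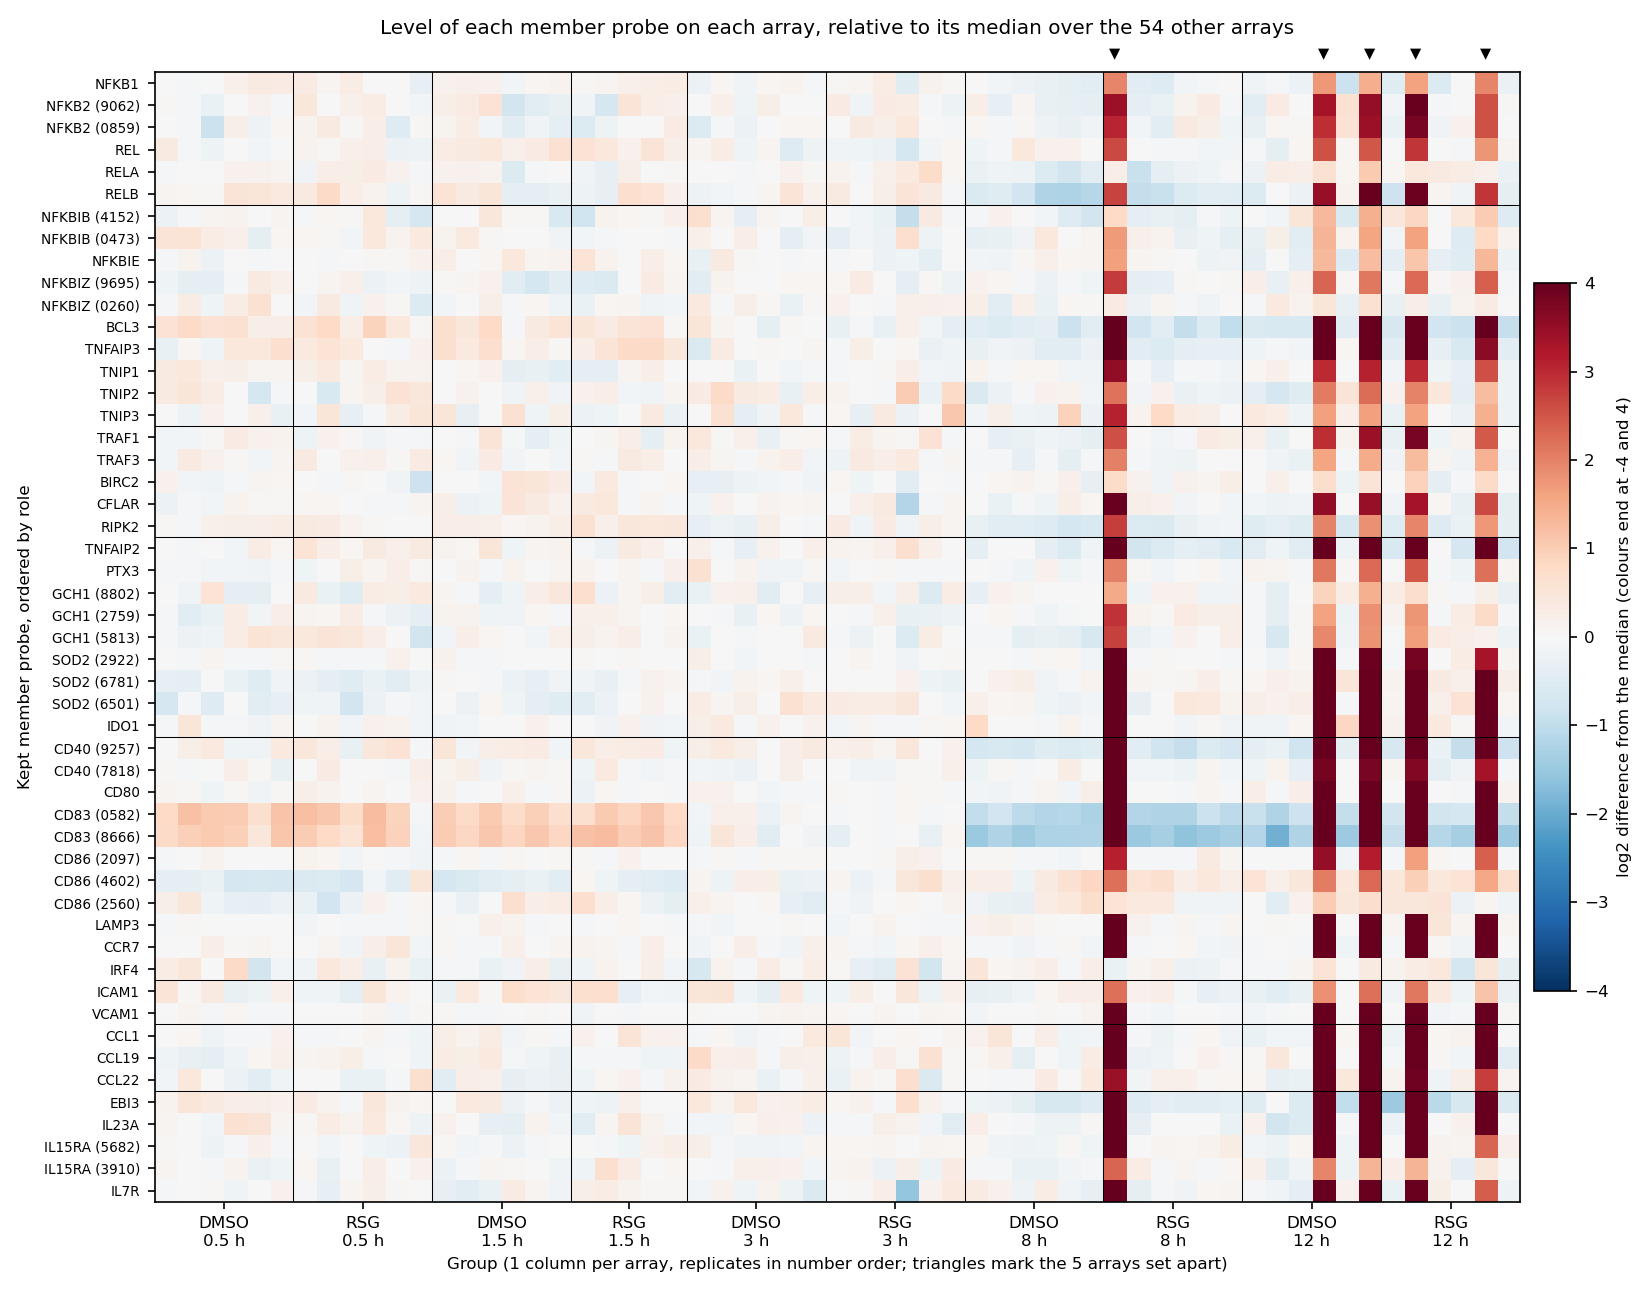
Each row is 1 of the 51 kept member probes, ordered by role, with the last 4 digits of the probe number where a gene has several, and each column is 1 of the 59 arrays. Colours give the log2 difference from the probe's median over the 54 arrays and end at a difference of 4 in either direction. The 5 arrays set apart, marked by triangles, form red columns, and in the other arrays both rows of CD83 go from red at 0.5 and 1.5 h to blue at 8 and 12 h.

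The first comparison asked whether RSG changed these genes. No member probe was called at any time, with 59 or with 54 arrays, by limma's moderated test with Benjamini-Hochberg adjustment over all 15336 kept probes and a threshold of 0.05. In the 54 arrays the member differences between RSG and DMSO were small, from -0.29 to 0.32 at 8 h and from -0.42 to 0.28 at 12 h, with medians of -0.01 and 0.00, next to a median of -0.01 for all probes at both times. Without adjustment 2, 1, 1, 4 and 5 member probes had a p under 0.05 at 0.5, 1.5, 3, 8 and 12 h. Few probes of the series were called in this comparison: 0% at 0.5 h, 0.013% at 1.5 h, 0% at 3 h, 0.893% at 8 h and 1.53% at 12 h. With 59 arrays the shares were 0%, 0%, 0%, 0.0782% and 0.0196%, and 0, 0, 0, 3 and 0 member probes had an unadjusted p under 0.05.

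EBI3, which pairs with another chain to form interleukin 27, came closest at 12 h. Its 4 DMSO arrays at 12 h read 7.75, 8.23, 7.69 and 7.25, and its 4 RSG arrays 6.80, 7.18, 7.61 and 7.66. The groups overlapped, and the difference of -0.42 ± 0.16 (SE) had an adjusted p of 0.256. TNFAIP3, the ubiquitin-editing enzyme A20 that ends NF-kB signalling, read 8.25, 8.37, 8.31 and 8.51 in DMSO and 7.96, 8.11, 7.81 and 7.98 in RSG at 12 h. These groups did not overlap, yet the difference of -0.39 ± 0.16 had an adjusted p of 0.30. TNIP1, which binds A20, differed by -0.28 ± 0.12 at 12 h without overlap (adjusted p = 0.344). RIPK2, the kinase of the NOD receptors, was on average higher in RSG at 1.5 h by 0.22 ± 0.10 and at 3 h by 0.24 ± 0.10, with overlapping groups and adjusted p-values of 1.00 at both times.

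Averaged over all times in a model with treatment and time, 0 member probes were called in either fit, as against 0.209% of all probes with 59 arrays and 1.34% with 54. With 54 arrays 6 member probes had an unadjusted p under 0.05, and with 59 arrays 0 had. RIPK2 had the smallest adjusted p, 0.144, at a difference of 0.14. The study's methods name a linear model on treatment and time. Such a model without moderation of the variance also called 0 member probes in both sets. It was run on the quantile-normalized levels with time as a factor, so it does not repeat the study's own analysis. The interaction of treatment with time was called for 0 member probes with 59 arrays (0% of all probes) and for 0 with 54 (0.326% of all probes), where 0 and 1 members had an unadjusted p under 0.05. That 1 member was TNFAIP2, a TNF-induced gene, whose interaction had an adjusted p of 0.671.

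A single array moved the picture at 8 h. With RSG at 8 h replicate 1 included, the median member difference at 8 h was 0.68 and 98.0% of the member probes were higher in RSG, while the median over all probes was -0.01. Without it the median member difference was -0.01 and 43.1% were higher. At 12 h, where 2 arrays of each treatment stood apart, the median was -0.12 with 59 arrays. The standard errors of the member differences at 8 h ran from 0.14 to 1.38 with 59 arrays and from 0.06 to 0.21 with 54.

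**Figure D2:**
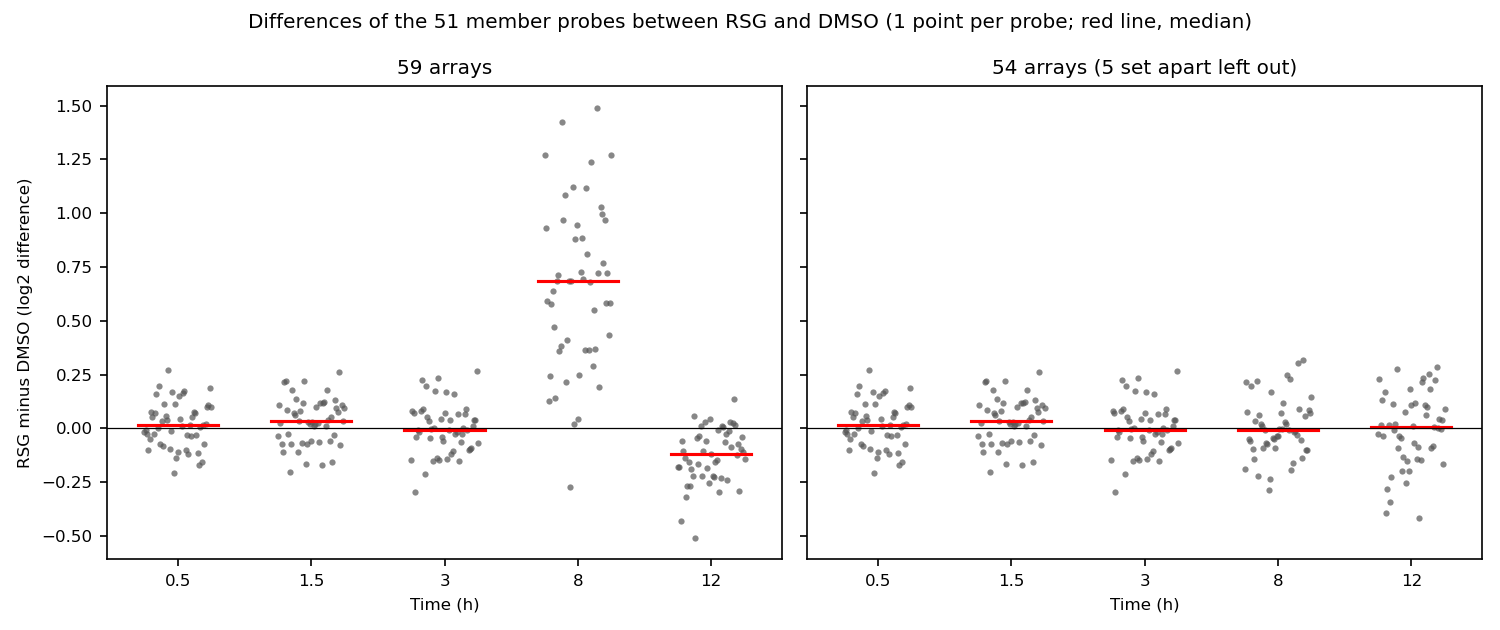
Each point is the RSG minus DMSO difference (log2, vertical axis) of 1 of the 51 member probes at the time on the horizontal axis (h), with 59 arrays on the left and 54 on the right, and red lines mark the medians. With 54 arrays the medians lie near 0 at every time, and with 59 arrays the median at 8 h is 0.68.

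The second comparison followed the vehicle-treated cells alone and asked how these genes changed between 0.5 h and later times. In the 54 arrays the members that changed mostly fell: at 8 h 13 of the 51 probes fell (25.5%) and 3 rose (5.88%), and at 12 h 10 fell (19.6%) and 3 rose (5.88%). Over all probes 16.7% fell and 18.9% rose at 8 h, and 16.9% fell and 19.5% rose at 12 h. At 3 h 5 member probes fell (9.80%) and 4 rose (7.84%), next to 9.36% and 10.8% of all probes, and at 1.5 h 1 fell and 1 rose, next to 2.6% and 2.29%. The member shares that fell at 3 and 12 h were thus near those of the array as a whole, and no test of the shares was made. In the median, member probes moved by -0.03 at 8 h and -0.09 at 12 h, against 0.00 and -0.01 for all probes. These samples are bulk RNA, in which fewer cells of a type and less RNA per cell cannot be told apart.

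With all 59 arrays the same comparisons called 0 member probes at 1.5 h and at 3 h, where 0.613% and 8.93% of all probes were called, and 0 had an unadjusted p under 0.05 at either time. At 8 h 1 member probe rose (13.3% of all probes did) and 1 fell (11.2%), those of CD86 (ILMN_1714602) and RELA, of which RELA lost its call without DMSO at 0.5 h replicate 4 or DMSO at 8 h replicate 4 or 5. At 12 h 7 rose (16% of all probes) and 0 fell (15%). Those 7 were 2 probes of CD86, 2 of SOD2 and 1 each of NFKB2, CCL22 and PTX3. They rested on DMSO at 12 h replicates 4 and 6: without replicate 4, or without replicate 6, 1 member probe was called. Leaving out any 1 of the DMSO arrays at 0.5 h gave 3 or 4, and leaving out any 1 of the other 4 DMSO arrays at 12 h gave 15 to 21. All other values of the time course below are for the 54 arrays, where DMSO at 12 h holds 4.

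CD83, a surface protein of mature dendritic cells, fell furthest. On the probe ILMN_1780582 its level was 9.48, 9.86 and 9.99 in DMSO at 0.5 h (lowest, median and highest of 6), 8.58, 8.89 and 9.02 at 3 h and 7.55, 7.74 and 8.05 at 8 h. The 4 arrays at 12 h read 7.93, 7.63, 7.99 and 7.87. The groups at 3, 8 and 12 h lay wholly under that at 0.5 h, and those at 8 and 12 h overlapped each other. The fall was 4.09-fold at 8 h (log2 difference -2.03 ± 0.13, SE, adjusted p = 2.54e-18) and 3.85-fold at 12 h (-1.94 ± 0.14, adjusted p = 3.16e-16). A second probe, ILMN_2328666, fell by 2.18 and 2.32 on the log2 scale. At 3 h the falls were 0.94 and 0.89, and at 1.5 h no fall was called.

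Of the other co-stimulatory genes CD40 fell as well and CD86 rose. CD40, the receptor for CD40 ligand, read 6.02, 6.30 and 6.57 in DMSO at 0.5 h and 5.49, 5.61 and 5.71 at 8 h on ILMN_1779257, and 5.79, 5.92, 5.40 and 5.78 at 12 h. It fell by 0.70 ± 0.13 at 8 h (adjusted p = 1.52e-05) and by 0.58 ± 0.14 at 12 h (adjusted p = 0.00103), with no overlap. Its second probe, ILMN_2367818, was detected on only 2 of the 54 arrays and differed by 0.02 at 8 h. CD86 is a ligand of CD28 on T cells. On ILMN_1714602 it read 6.32, 6.48 and 6.74 at 0.5 h, 6.80, 7.32 and 7.82 at 8 h, and 7.54, 7.20, 7.44 and 7.44 at 12 h. It rose by 0.50 ± 0.15 at 3 h, by 0.87 ± 0.15 at 8 h (adjusted p = 4.90e-06) and by 0.91 ± 0.17 at 12 h (adjusted p = 1.42e-05). The CD86 probes disagreed: ILMN_1782560, detected on every array, differed by 0.19 ± 0.19 at 8 h (adjusted p = 0.47), and ILMN_1672097 was not detected on the 54 arrays. LAMP3, CCR7 and CD80 were likewise not detected on any of them, so no change in vehicle could be measured for these 3 genes, and IRF4 differed by 0.09 at 8 h and -0.11 at 12 h.

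Among the subunits, RELB, the partner of the p52 subunit in the non-canonical pathway, fell at 8 h and not at 12 h. Its level was 7.42, 7.62 and 7.89 at 0.5 h and 6.16, 6.43 and 6.90 at 8 h, and at 12 h the arrays read 6.84, 7.37, 7.13 and 7.52. The fall at 8 h was 2.24-fold (-1.16 ± 0.18, adjusted p = 7.91e-07), and the difference at 12 h was -0.43 ± 0.20 (adjusted p = 0.0977). RELA, the transactivating p65 subunit, read 7.04, 7.16 and 7.29 at 0.5 h and 6.39, 6.75 and 6.93 at 8 h, a fall of 0.45 ± 0.13 (adjusted p = 0.00489), and differed by 0.04 at 12 h. NFKB1, the gene of p105 and p50, fell by 0.40 ± 0.12 at 8 h (adjusted p = 0.00778) and by 0.46 ± 0.14 at 12 h (adjusted p = 0.00558), from 11.78, 11.93 and 12.18 to 11.69, 11.77, 11.61 and 10.97. The call at 12 h was lost without DMSO at 12 h replicate 5, the lowest array, where the difference was -0.28. REL, the gene of c-Rel, rose only at 1.5 h, by 0.39 ± 0.12 (adjusted p = 0.0405), and the call was lost in 8 of the 12 fits that left out an array, among them those without DMSO at 1.5 h replicate 4, 5 or 6. NFKB2 differed by -0.13 and 0.04 on its 2 probes at 8 h.

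Of the inhibitors, BCL3, a nuclear IkB protein, fell most. It read 6.47, 6.83 and 7.02 in DMSO at 0.5 h, 5.90, 6.28 and 6.75 at 3 h, 5.40, 5.79 and 5.91 at 8 h, and 5.66, 5.65, 5.64 and 5.82 at 12 h. The arrays at 8 and 12 h lay under all those at 0.5 h, with a fall of 2.02-fold at 8 h (-1.02 ± 0.13, adjusted p = 1.04e-08) and 2.09-fold at 12 h (-1.06 ± 0.15, adjusted p = 5.04e-08). TNFAIP3 fell by 0.49 ± 0.13 at 8 h (adjusted p = 0.00258) and differed by -0.26 ± 0.15 at 12 h (adjusted p = 0.176). In the table the authors had scaled themselves, the TNFAIP3 and RELA differences at 8 h were -0.30 and -0.33 and were not called (adjusted p = 0.119 and 0.112). TNIP1 was lower early, by 0.39 at 1.5 h and 0.31 at 3 h, and by 0.24 ± 0.10 at 8 h (adjusted p = 0.0489). Omissions of an array removed the TNIP1 call in 2 of 12 fits at 1.5 h, 1 of 12 at 3 h and 7 of 12 at 8 h. NFKBIE, an IkB protein, fell at 12 h by 0.28 ± 0.11 (adjusted p = 0.0342) and kept its call in 4 of 10 omissions. No call was made for the probes of NFKBIB, NFKBIZ, TNIP2 and TNIP3 at 8 or 12 h.

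Among the signalling proteins RIPK2 read 9.46, 9.73 and 9.82 at 0.5 h, 8.82, 9.03 and 9.23 at 8 h, and 9.04, 9.16, 9.02 and 8.87 at 12 h. Neither later group overlapped the first, and RIPK2 fell by 0.66 ± 0.10 at 8 h (adjusted p = 2.47e-07) and by 0.65 ± 0.11 at 12 h (adjusted p = 3.39e-06). TRAF1, an adaptor of TNF receptors, fell by 0.31 ± 0.12 at 8 h (adjusted p = 0.0435), but it was detected on 3 of 6 arrays at 0.5 h and 1 of 6 at 8 h, and the call was kept in 3 of 12 omissions. CFLAR, an inhibitor of caspase 8, differed by 0.00 at 8 h, and BIRC2, a ubiquitin ligase of the same receptor complexes, by 0.03.

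SOD2, the mitochondrial superoxide dismutase, rose, as the CD86 probe did, at 3, 8 and 12 h. Its probe ILMN_2336781 read 8.87, 9.07 and 9.37 in DMSO at 0.5 h, 9.23, 9.44 and 9.60 at 8 h, and 9.45, 9.58, 9.51 and 9.86 at 12 h. It rose by 0.31 at 3 h, by 0.32 ± 0.09 at 8 h (adjusted p = 0.00414) and by 0.50 ± 0.10 at 12 h (adjusted p = 8.50e-05), where the groups no longer overlapped. ILMN_2406501 rose by 0.62 at 3 h, 0.32 at 8 h and 0.49 at 12 h, and its call at 8 h was lost in 8 of 12 omissions. The remaining probe, ILMN_1792922, was not detected on the 54 arrays. GCH1, the first enzyme of tetrahydrobiopterin synthesis, fell on 1 of 3 probes (ILMN_2335813, -0.45 ± 0.15 at 8 h, adjusted p = 0.0192), while ILMN_1812759, detected on every array, differed by 0.01. The GCH1 call was lost without DMSO at 0.5 h replicate 5 or 6 or DMSO at 8 h replicate 6. TNFAIP2 fell at 12 h by 0.35 ± 0.13 (adjusted p = 0.0375), a call lost in 4 of 10 omissions, those of DMSO at 0.5 h replicates 5 and 6 and DMSO at 12 h replicates 1 and 3.

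Of the 5 kept probes of cytokines and receptors, 1 fell at 8 h and 2 fell at 12 h, and none rose at these times. Over all probes 16.7% fell and 18.9% rose at 8 h, and 16.9% and 19.5% at 12 h. With 5 probes these counts cannot be told from those shares. EBI3 read 8.40, 8.51 and 8.73 in DMSO at 0.5 h and 7.60, 7.79 and 8.08 at 8 h, without overlap, a fall of 0.72 ± 0.13 (adjusted p = 1.53e-05). At 12 h it had fallen by 0.80 ± 0.15 (adjusted p = 1.64e-05). IL23A, the p19 chain of interleukin 23, fell at 12 h by 0.50 ± 0.16 (adjusted p = 0.00863), with arrays at 5.77, 4.88, 5.07 and 5.52, and was detected on 2 of these 4. Its call was lost without DMSO at 12 h replicate 2 or 3. The chemokine CCL19 rose at 3 h by 0.39 ± 0.13 (adjusted p = 0.0257), detected on 4 arrays at 3 h and 1 at 0.5 h. CCL22, a ligand of CCR4, differed by 0.18 at 8 h (adjusted p = 0.408) and ICAM1, a ligand of leukocyte integrins, by -0.13 (adjusted p = 0.614). The receptor IL7R differed by 0.04 at 8 h.

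**Figure D3:**
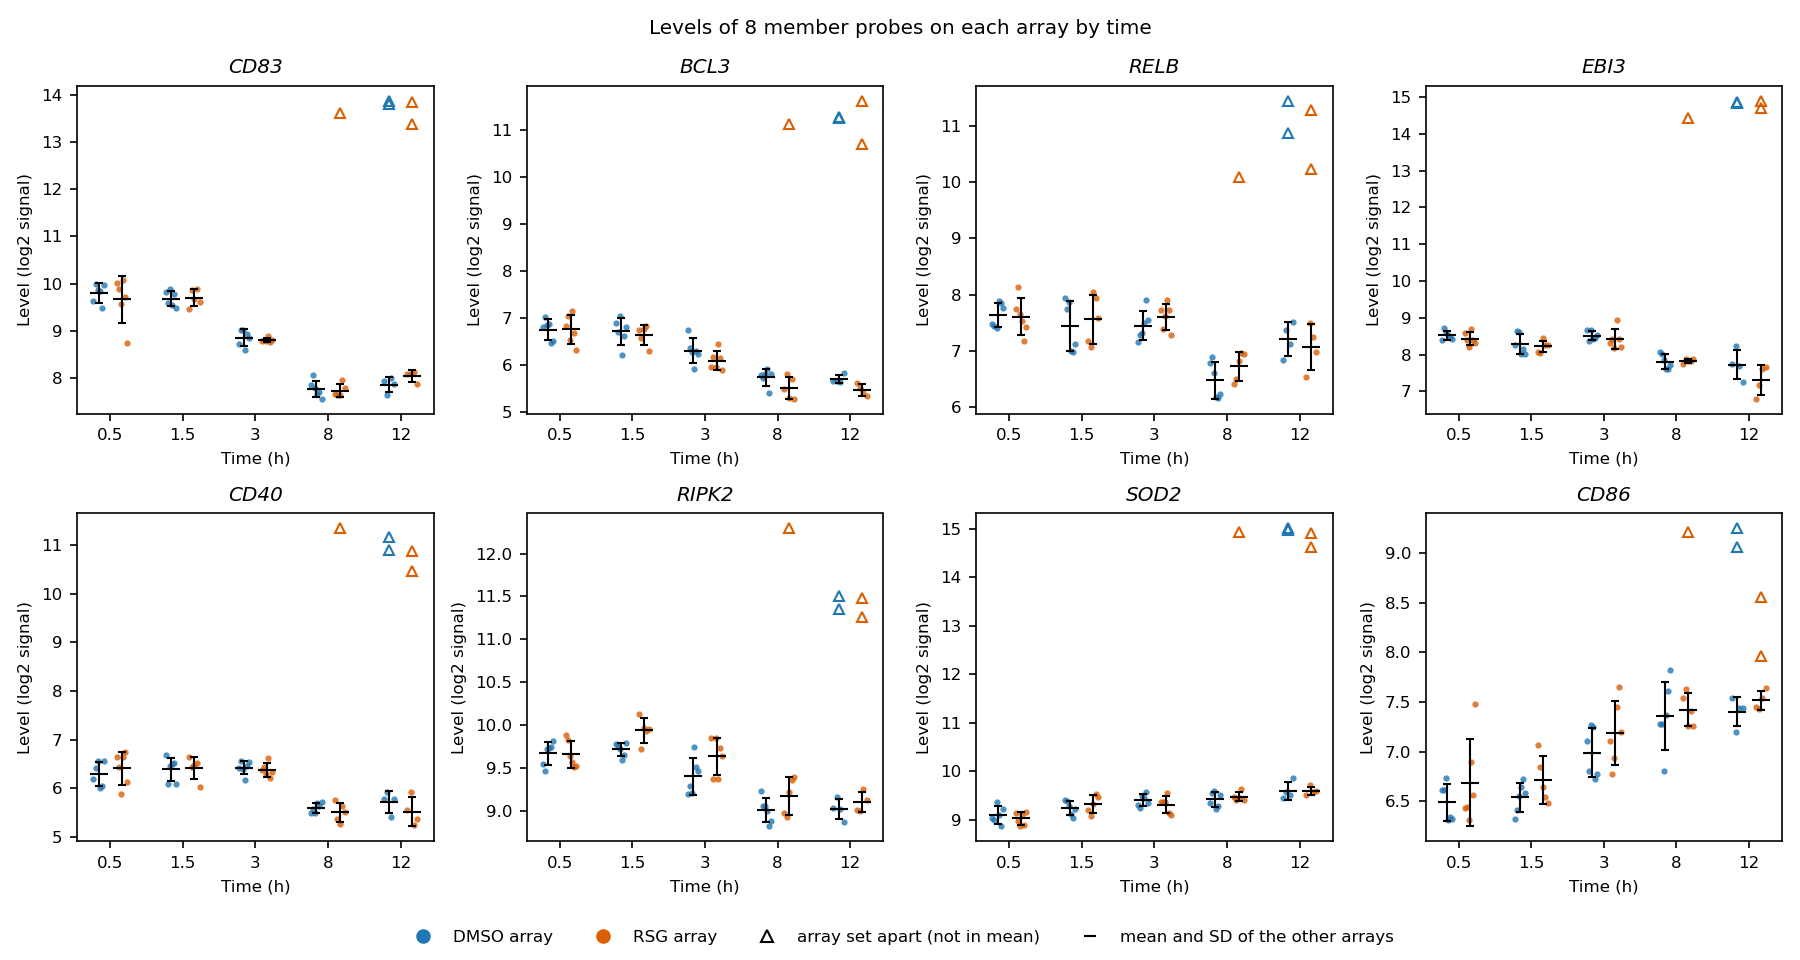
Log2 signal (vertical axes) of 8 member probes against time in h, with 1 point per array, DMSO in blue and RSG in orange. Bars give the mean and SD of each group without the 5 arrays set apart, which are drawn as open triangles. CD83, BCL3, EBI3, CD40 and RIPK2 are lower at 8 and 12 h than at 0.5 h in both treatments, RELB is lowest at 8 h, and SOD2 and CD86 are higher.

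The array background, as read from the authors' scaled table, was above 75 on 13 arrays, 3 of them DMSO at 3 h, 1 at 8 h and 1 at 12 h. With arrays of lower background alone, an alternative chosen after the data were seen, the member calls in the 54 arrays were 4 at 3 h in place of 9. With that background as a term all counts at 3, 8 and 12 h stayed within 1.5 times those given.

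The RSG arrays offered the same time course in other samples, compared after the result in DMSO was known. In the 54 arrays 12 member probes fell and 3 rose between 0.5 and 8 h, next to 15% and 17.3% of all probes. At 12 h 12 fell and 4 rose, next to 17.3% and 18.6%. With 59 arrays 1 member probe rose and 0 fell at 8 h (10.8% and 10.6% of all probes), and 3 rose and 0 fell at 12 h (15.8% and 14.9%). These were CD86 (ILMN_1714602) at both times and 2 probes of SOD2 at 12 h. The count at 8 h was 2 without RSG at 0.5 h replicate 1 or RSG at 8 h replicate 1 or 3, and that at 12 h was 1 without RSG at 12 h replicate 2 or 5 and 8 to 10 without any 1 of the other 4 arrays at 12 h. In the 54 arrays CD83 fell by 1.93 ± 0.13 at 8 h and by 1.63 ± 0.14 at 12 h on ILMN_1780582, with RSG arrays at 8 h of 7.64, 7.63, 7.63, 7.95 and 7.78. BCL3 fell by 1.24 ± 0.14 and 1.29 ± 0.15, and EBI3 by 0.60 ± 0.14 and 1.12 ± 0.15. RELB again fell more at 8 h (0.88 ± 0.19) than at 12 h (0.54 ± 0.20, adjusted p = 0.0316), though the difference between the times was not tested. CD86 rose by 0.73 ± 0.16 and 0.83 ± 0.17, and SOD2 by 0.45 ± 0.10 and 0.57 ± 0.10 on the probe ILMN_2336781. TNFAIP2 fell in RSG by 0.83 ± 0.13 at 8 h and by 0.81 ± 0.13 at 12 h. The 4 rises at 12 h included LAMP3, by 0.24, but the LAMP3 probe was not detected on any array of either group.

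On the 5 arrays set apart, nearly the whole list lay higher. All 5 were above every one of the 54 arrays for 43 of the 51 kept probes (84.3%) and below every one for 0, while 6.34% of all kept probes were above and 7.81% below. Among the 40 member probes detected on at least 5 of the 54 arrays, 32 were above (80%). The 6.34% is over all kept probes, and no share was computed over all probes that pass this stricter filter. The mean level over the 51 probes was 9.38 to 10.16 on the 5 arrays and 6.20 to 6.55 on the 54. This mean includes the 11 probes detected on fewer than 5 of the 54 arrays. Those probes could pass the filter only with the 5 arrays, which widens the contrast, and no mean without them was computed. The 5 arrays are those named above, and the values are a description of them, in DMSO and in RSG alike. Both the members and these arrays were chosen with earlier results of these data known, so the shares and the mean test nothing.

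The 10 widest gaps belonged to LAMP3, CCL1, IDO1, CCL19, CD80, VCAM1, EBI3, 2 probes of SOD2 and CCR7. Of these, LAMP3, CD80, VCAM1 and CCR7 were not detected on any of the 54 arrays, CCL1 on 1 and IDO1 on 2. The probes of these genes passed the detection filter only through the 5 arrays and had to be higher there. LAMP3 read 13.95 and 14.00 on DMSO at 12 h replicates 4 and 6, 13.57 on RSG at 8 h replicate 1, and 14.01 and 13.39 on RSG at 12 h replicates 2 and 5. On the other 54 arrays its level was 4.27 to 4.88, without detection. CD80, the second CD28 ligand, read 11.15, 11.06, 11.01, 11.09 and 10.49 on the same 5 arrays in that order, and CCR7 12.80, 12.93, 12.91, 12.87 and 9.73. CCR7 was thus clearly lower on RSG at 12 h replicate 5 than on the other 4. IDO1, which degrades tryptophan, read 12.77, 12.71, 13.10, 12.90 and 11.60, and was detected on 2 of the 54 arrays, where its range was 4.23 to 5.21. VCAM1, an endothelial and stromal adhesion molecule, read 10.35, 10.60, 10.87, 10.25 and 11.51, and was highest on the array on which CCR7 was lowest.

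The chemokines CCL1, 12.78, 13.20, 13.14, 13.21 and 11.95, and CCL19, 12.08, 12.38, 11.96, 12.32 and 12.81, were also among the widest, over 4.35 to 5.14 and 4.58 to 5.76. CCL22 read 8.11 to 9.77 over 4.78 to 6.00. EBI3 read 14.42 to 14.90 on the 5 arrays and 6.80 to 8.93 on the 54, and SOD2 read 14.62 to 15.01 over 8.87 to 9.86 on ILMN_2336781 and 12.83 to 14.01 over 6.37 to 7.74 on ILMN_2406501. Both therefore moved by far more between these arrays than over the 12 h of either treatment. The same held for the genes that fell with time: CD83 read 13.38 to 13.88 over 7.55 to 10.07, CD40 10.47 to 11.34 over 5.24 to 6.75, and BCL3 10.70 to 11.62 over 5.28 to 7.16.

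By role the gaps overlapped, where a negative gap means that the ranges meet. They ran from -0.51 to 1.98 for the subunits and from -0.35 to 3.54 for the inhibitors, widest for BCL3. For the maturation genes they ran from -1.02 to 8.50. NFKB1 read 13.29 to 13.79 over 10.97 to 12.18, RELB 10.09 to 11.44 over 6.16 to 8.13, REL 7.69 to 8.80 over 5.24 to 6.56, and NFKB2 8.31 to 9.74 over 5.05 to 6.37 on ILMN_1799062. RELA overlapped, with 7.33 to 8.15 against 6.22 to 7.84. The feedback inhibitors TNFAIP3, 12.03 to 12.76 over 7.81 to 9.20, and TNIP1, 11.02 to 11.99 over 8.00 to 8.88, were separated more widely than NFKBIB, NFKBIE or TNIP2, whose gaps were 0.15 to 0.56. TRAF1 read 7.59 to 8.93 over 4.72 to 5.71, CFLAR 10.93 to 12.25 over 7.11 to 8.79, and ICAM1 5.85 to 6.93 over 4.29 to 5.42. The 8 probes that overlapped were those of RELA, BIRC2 and IRF4, 1 of 2 for NFKBIZ and IL15RA, 1 of 3 for CD86 (ILMN_1782560), and 2 of 3 for GCH1.

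**Figure D4:**
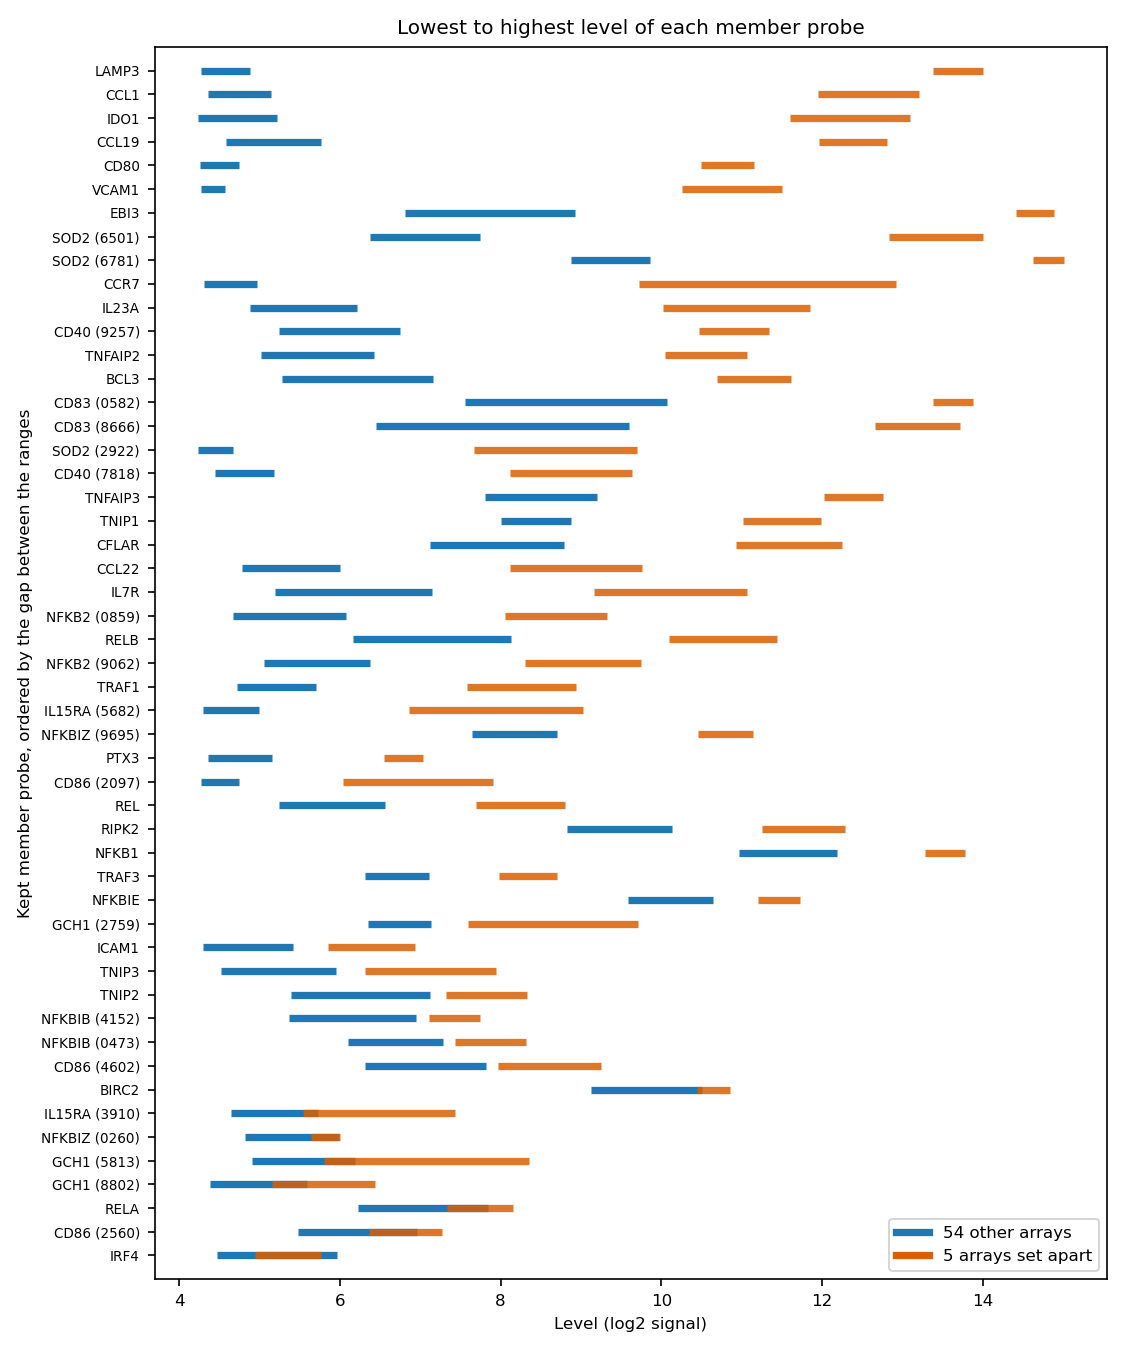
Each row is 1 of the 51 kept member probes, with the range from its lowest to its highest level (log2 signal, horizontal axis) on the 54 arrays in blue and on the 5 arrays set apart in orange. Rows are ordered by the gap between the ranges, widest at the top (LAMP3), and 8 rows at the bottom overlap.

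Markers of macrophages and of other cells were read on the same arrays. Of the monocyte and macrophage markers, CD14, CD68 and LYZ among them, 8 of 9 were detected on most arrays of both sets, and so were 1 of 6 for T cells, 2 of 3 for B cells, 3 of 4 for NK cells and 2 of 3 for neutrophils. For dendritic cells 6 of 10 were detected on most of the 54 arrays and 5 of 10 on most of the 5, and for fibroblasts, epithelium and endothelium 1 of 4 and 2 of 4. The summed signal of 9 monocyte and macrophage markers was 16200 to 22645 on the 5 arrays and 30131 to 39408 on the 54, with MRC1 not detected on any array. Most of its probes that separated were lower on the 5 arrays. CSF1R read 12.74 to 13.33 on the 5 arrays and 13.69 to 14.44 on the 54, and ITGAM 8.62 to 9.66 against 10.83 to 11.94. Both probes of CD14, FCGR1A and the MSR1 probe ILMN_1694400 also lay wholly lower. Only SPI1 (ILMN_1696463) lay wholly higher, at 11.35 to 12.06 against 9.98 to 11.16, while its other probe overlapped. CD68 (ILMN_2359907) overlapped too, at 10.44 to 11.14 against 10.21 to 10.87. For 10 dendritic cell markers outside the list the summed signal was 1357 to 1668 against 1289 to 2289, with CD1B and CLEC9A not detected. This overlap of the sums did not hold for each gene. FLT3 read 6.00 to 6.99 on the 5 arrays and 8.23 to 9.09 on the 54. CD1A read 4.54 to 5.51 against 5.83 to 7.74, and CD209 also lay wholly lower on the 5 arrays. ZBTB46 overlapped, at 9.64 to 10.09 against 8.29 to 10.06, and no marker of this list lay wholly higher. T cell markers summed to 277 to 316 against 271 to 319, with CD2 and CD3E not detected. B cell markers gave 263 to 323 against 300 to 491, NK cell markers 2635 to 3953 against 2396 to 5003 with KLRD1 not detected, and neutrophil markers 129 to 276 against 201 to 391 with CEACAM8 not detected. Markers of fibroblasts, epithelium and endothelium gave 238 to 305 against 597 to 1350, with COL3A1 not detected. Of this list only PECAM1 lay wholly lower on the 5 arrays, at 7.09 to 7.65 against 8.99 to 10.31. EPCAM overlapped, at 5.52 to 5.88 against 4.55 to 5.70, and was detected on all 5 arrays and on 27 of the 54. Within the NK cell list the NCAM1 probe ILMN_1676289 lay wholly higher on the 5 arrays, at 6.37 to 6.54 against 4.70 to 5.64. The part of other cells, of RNA quality or of handling in the levels of the 5 arrays was not tested.

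Signalling genes upstream of NF-kB, mostly from receptors to the IkB kinases, were taken as a list of 39, of which 33 had 41 kept probes. The list also held NFKBID, NKIRAS1, NKIRAS2 and COMMD1, which lie outside that stretch. None was called between RSG and DMSO at any time in either fit, with at most 3 at an unadjusted p under 0.05. In DMSO with 54 arrays 6 of the 41 probes rose and 11 fell at 8 h, with a median of -0.14, and 7 rose and 8 fell at 12 h, with a median of -0.08. Over all probes 18.9% rose and 16.7% fell at 8 h, and 19.5% and 16.9% at 12 h, and no test set the list against them. IRAK2, a kinase of the Toll-like and interleukin 1 receptors, fell by 2.05 ± 0.17 at 8 h and by 2.46 ± 0.18 at 12 h (adjusted p = 9.26e-15 and 6.44e-16). TNFRSF1B, the second TNF receptor, fell by 1.07 ± 0.19 and 1.77 ± 0.21. IRAK3, which restrains the IRAK kinases, rose by 0.77 ± 0.10 and 0.75 ± 0.12 (adjusted p = 3.66e-08 and 5.82e-07). These 3 upstream genes were picked after their values were seen.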

How the data were processed

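The 59 samples were hybridised to Illumina bead arrays. The deposited signal table holds a bead intensity for every probe, left by the authors without background subtraction or scaling, and beside each value a deposited detection p-value. A second table holds the intensity that the authors had background-subtracted and scaled by average normalization in BeadStudio, and it was used for alternatives and for the background per array. Of 24531 probes, 24526 were in both tables and were used, and 21834 had 1 symbol on the platform, 0 several and 2692 none. Raw intensities were corrected and quantile-normalized with neqc (offset 16, limma 3.58.1, R 4.3.3), and probes with a detection p under 0.01 on 5 or more arrays were kept, 15336 in all. The number of arrays limits the precision.

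Group means (10 groups) were fitted in limma at probe level and contrasts were tested two-sided. P-values were adjusted by Benjamini-Hochberg over the kept probes with a threshold of 0.05, once with 59 arrays and once with 54, normalized together. A model with treatment and time gave the difference over all times. Differences carry the SE of these fits. The group fit was tried on simulated levels with known changes in DMSO at 8 h and independent noise, drawn from the spread of the 54 arrays. That trial does not cover the fits with 59 arrays. Replicate numbers did not pair the samples (see the correlations in the closing section).

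The members, the marker and upstream lists and the 5 arrays set apart were chosen with earlier results of these data known. The text names 20 genes always (the subunits, main inhibitors and maturation markers), the largest rises and falls over time at 8 and 12 h, up to 6 in each direction, members called between RSG and DMSO (0), the 10 probes with the widest gap on the 5 arrays, and all probes of a gene where they disagree. Other named members were picked to complete each role. Alternatives were the authors' table (floored at 16), no background correction, other detection filters, 1 probe for each gene, the replicate number as a block, and a trended and robust prior. Further ones were array background as a term, only the 2 groups compared, a linear model on treatment and time without moderation, and leaving out each array.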

Additional observations from a re-analysis of the deposited data

Results flagged for a closer look

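The level of each of 18 always-named members, at its brightest kept probe, and the mean over the 51 kept member probes were examined within each of the 10 groups of 5 or 6 arrays, 190 groups in all, for an array whose gap to its nearest neighbour took an unusually large share of the group's range. There were 25. Of these, 18 were at RSG at 8 h replicate 1, the only array set apart in its group. That array was set apart on its measured values, so these 18 restate that choice and are given as a description. Its gap was 0.971 of the range for the member mean, which was 10.16 on this array and 6.20 to 6.32 on the others of the group. That mean includes the 11 probes that could pass the detection filter only with the arrays set apart. For single genes the gap on this array was 0.794 of the range for NFKB1, 0.824 for NFKB2, 0.966 for REL, 0.853 for RELB, 0.953 for TNFAIP3, 0.83 for TRAF1, 0.921 for CD40, 0.975 for CD80, 0.946 for CD83, 0.807 for CD86, 0.977 for LAMP3, 0.975 for CCR7, 0.977 for IDO1, 0.978 for EBI3, 0.915 for CCL22, 0.957 for SOD2 and 0.769 for ICAM1. Groups at 12 h hold 2 such arrays each, which hide each other from this measure.

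The other 7 gaps were on arrays not set apart. Chance gives about 1 such gap in 20 groups, so several can arise by chance among the 190. On RSG at 3 h replicate 4, NFKB1 was low (gap 0.7, level 11.35 against 11.89 to 12.12), EBI3 was high (0.675, 8.93 against 8.19 to 8.43), and CD83 was high by a small amount (0.706, 8.89 against 8.76 to 8.80). Over all kept probes this array had a median correlation with the other arrays of 0.959, against 0.977 to 0.984 for the rest of its group. REL was high on DMSO at 0.5 h replicate 1 (0.658, 6.28 against 5.74 to 5.92), RELA low on DMSO at 1.5 h replicate 4 (0.672, 6.58 against 7.06 to 7.30), IDO1 high on DMSO at 8 h replicate 1 (0.766, 5.18 against 4.34 to 4.54) and CCL22 high on RSG at 0.5 h replicate 6 (0.694, 5.97 against 5.06 to 5.34).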

How the results depend on the processing

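The count of member probes called between RSG and DMSO was 0 under every alternative run and in every fit that left out an array (124 counts with other settings), at each time and over all times, with 59 and with 54 arrays. With 54 arrays the counts of called member probes in DMSO against 0.5 h were 2, 9, 16 and 13 at 1.5, 3, 8 and 12 h, and leaving out 1 array gave 0 to 2, 7 to 9, 13 to 16 and 10 to 13. At 1.5 h the count was 1 with the authors' table, without the detection filter, with probes detected on every array, with the 2 groups alone and with the replicate block, and 0 without DMSO at 1.5 h replicate 4 or 6. At 3 h it was 4 with arrays of low background alone. In RSG against 0.5 h with 54 arrays leaving out 1 array gave 13 to 16 at 8 h and 14 to 17 at 12 h, and no setting moved the 15 and 16 calls by over 1.5 times.

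With 59 arrays the counts were 0, 0, 2 and 7, and they became 2, 9, 16 and 13 without the 5 arrays set apart. With the 2 groups compared alone they were 1, 7, 16 and 1. At 8 h the authors' table gave 1. At 12 h the count was 3 without the detection filter, 3 with probes detected on every array, 4 with 1 probe for each gene, 3 with the replicate block and 12 with arrays of low background alone, which leave out DMSO at 12 h replicate 1. Leaving out 1 array gave 0 to 0 at 1.5 and 3 h, 1 to 2 at 8 h and 1 to 21 at 12 h, the highest without DMSO at 12 h replicate 2. In RSG against 0.5 h with 59 arrays the counts were 1 at 8 h and 3 at 12 h. They were 15 and 16 without the 5 arrays and 3 and 6 with the authors' table, and at 12 h 1 with the 2 groups alone and 1 with arrays of low background alone. Leaving out 1 array gave 1 to 2 at 8 h and 1 to 10 at 12 h. The cause of these shifts was not tested beyond the arrays left out.

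Differences of named probes between DMSO at 12 and 0.5 h were compared with and without the 5 arrays. Among those called in at least 1 of these 2 fits, 10 changed sign when the 5 were left out: CD86 (ILMN_1672097) to -0.034, BCL3 to -1.06, NFKB1 to -0.46, IL23A to -0.50, NFKBIE to -0.28, TNFAIP2 to -0.35, RIPK2 to -0.65, CD40 to -0.58, CD83 to -1.94 and EBI3 to -0.80. Sign changes without a call in either fit were not counted. Of all 51 member probes, 98.0% were higher at 12 h with 59 arrays and 31.4% with 54. With 54 arrays none of the 1220 values of named probes under other settings changed sign where the main fit or the alternative made a call. Sign changes without a call were again not counted. Of these values 1188 kept their side of the threshold, 30 lost the call and 2 gained it. Of 39 calls of named probes over time, 27 were kept whichever array was left out and 12 were lost in some of these fits.

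Replicate numbers were checked as pairs. With 59 arrays same-numbered DMSO and RSG arrays deviated from their group means with mean correlations of -0.36, -0.25, -0.20, -0.30 and -0.29 at the 5 times, so they were not taken as pairs. With the replicate number as a block the counts in DMSO with 54 arrays were 1, 8, 14 and 11, and in RSG against DMSO 0. Low signal limits 11 member probes, which were detected on fewer than 5 of the 54 arrays.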
